A study of Caenorhabditis elegans with 2 samples.

Results

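Of the 6000 highest-ranked peaks of the PEB-1 profile of second-stage (L2) Caenorhabditis elegans larvae, 294 had their summit inside an exon of a non-coding RNA gene. These RNA-exon peaks were chosen by 2 measures. The peak had to rank from 1 to 6000 by deposited signal in the list made from the pooled replicates, and its summit, the base of highest signal, had to lie in an exon of an RNA gene and in no exon of a protein-coding gene. Pseudogenes and piRNA genes did not count as RNA genes. The 294 peaks were 4.9% of the 6000 (95% exact binomial interval 4.37 to 5.48%), and the remaining 5706 peaks are called the other peaks. Their summits lay in exons of 355 distinct RNA genes, since overlapping annotations can share a base.

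The assay was ChIP-seq, in which DNA bound by a tagged protein is pulled down and sequenced, with fragments of 150 to 350 bp. A single group was sampled, 2 biological replicates of whole L2 animals with males and females pooled, whose age within the stage is given as unknown. The strain was OP86, which carries the allele unc-119(ed3) on chromosome III and the integrated transgene wgIs86 for eGFP-tagged PEB-1, so every sample carried both. Whole animals mix all cell types, and there was no group to set against this one. Depth is unknown, and the exact binomial intervals below cover counting error only. The deposited list of thresholded peaks was the highest 160 ranks of the pooled list, and it was made from the same reads.

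PEB-1 is a DNA-binding protein of the FLYWCH zinc finger kind, known from work on the enhancer of the pharyngeal myosin gene myo-2. RNA genes differ in how they are read. Transfer RNA genes are transcribed by RNA polymerase III from promoter elements inside the gene, of which the B box holds the letters GTTCGA in its common form. Small nuclear RNAs (snRNAs) serve in splicing, and in nematodes they include spliced leader RNAs such as the SL2 RNAs of the sls-2 genes. Small nucleolar RNAs (snoRNAs) guide the modification of other RNAs and often lie in introns. The largest annotated kind in C. elegans, with the biotype ncRNA, is made of short loci whose product is unclassified.

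The strongest RNA-exon peaks outside the peb-1 gene are shown first by their sequence. Each line below gives 61 bases centred on the summit, read 5′ to 3′ on the strand of the RNA gene, in the build ce11 (WBcel235). Capitals mark either GAGAGA (or TCTCTC, its reverse complement) or a core hexamer. The core hexamers were ATGCCA or ATGCCG or GTGCCA or GTGCCG or TTGCCA or TTGCCG, on either strand, which are the inner letters of the PEB-1 consensus as recalled from published binding work. The windows are those of the 7 highest-ranked RNA-exon peaks outside the peb-1 locus, from 5 unclassified ncRNA genes at pooled ranks 9, 12, 13, 24 and 31, from the snRNA gene at rank 37 and from the snoRNA gene at rank 38.
F13D11.22, chrX:5812107-5812167, plus strand: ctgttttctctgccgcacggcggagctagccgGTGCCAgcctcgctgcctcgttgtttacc
W06B11.7, chrX:5841263-5841323, minus strand: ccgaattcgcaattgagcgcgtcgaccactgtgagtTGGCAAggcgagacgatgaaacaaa
F59B10.7, chrII:10502933-10502993, plus strand: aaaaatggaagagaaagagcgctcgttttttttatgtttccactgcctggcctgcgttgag
Y15E3A.8, chrX:15354014-15354074, minus strand: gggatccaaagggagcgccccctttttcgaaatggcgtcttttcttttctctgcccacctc
F44A6.7, chrX:10194596-10194656, plus strand: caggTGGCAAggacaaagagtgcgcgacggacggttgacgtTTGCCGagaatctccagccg
C52E4.8, chrV:11980216-11980276, plus strand: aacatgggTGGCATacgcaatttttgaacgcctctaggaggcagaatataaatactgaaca
F07A11.15, chrII:11620103-11620163, plus strand: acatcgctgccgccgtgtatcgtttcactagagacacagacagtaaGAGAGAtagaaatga
In 4 of these 7 windows a core hexamer lay within 30 bases of the summit, and F44A6.7 held 2. The windows of F59B10.7 and Y15E3A.8 held neither motif at this length, and both motifs within 100 bp. The snoRNA window of F07A11.15 held a GA repeat and no core hexamer. A match is a description of letters and does not show a binding site.

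The 4 highest-ranked tRNA genes are shown next because their own promoter letters lie inside the peak. The windows are drawn in the same way, and capitals here mark GTTCGA.
F57F5.t1, chrV:12002212-12002272, plus strand: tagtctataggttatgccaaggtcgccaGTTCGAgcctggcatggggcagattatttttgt
C02B4.t1, chrX:12661208-12661268, plus strand: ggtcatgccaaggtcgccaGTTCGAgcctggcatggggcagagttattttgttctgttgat
C04A11.t1, chrX:13665641-13665701, plus strand: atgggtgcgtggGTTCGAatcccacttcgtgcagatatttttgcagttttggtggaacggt
C33G3.t2, chrX:14063961-14064021, minus strand: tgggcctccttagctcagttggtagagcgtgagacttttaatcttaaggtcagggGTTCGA
All 4 windows held GTTCGA. The windows of F57F5.t1 and C02B4.t1, both isoleucine tRNA genes, shared an identical stretch of 38 bases. That stretch also held core letters on both sides of GTTCGA, inside the annotated tRNA gene. The windows of the leucine gene C04A11.t1 and the lysine gene C33G3.t2 held no core hexamer.

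The share of RNA-exon peaks was highest among the strongest peaks. In pooled ranks 1 to 160 it was 23.1% (37 peaks, interval 16.8 to 30.4%), and in ranks 161 to 320 it was 23.8% (38 peaks). It was 9.69% in ranks 321 to 640, 7.19% in ranks 641 to 1280 and 4.06% in ranks 1281 to 2560. In ranks 2561 to 4000 it was 2.92%, and in ranks 4001 to 6000 it was 2.4%. Past the limit of the rule, summits in RNA exons made up 1.77% of the other 24000 peaks of the pooled list. Exons of these RNA genes that are not also coding exons cover 1.22% of the bases of the 6 chromosomes. Rank chose the peaks, so these values are a description.

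The list of each replicate also had its highest shares in the top bins, at different levels. Replicate 1 had 21.9% of its ranks 1 to 160 and 26.9% of its ranks 161 to 320 in RNA exons. Replicate 2 had 10.6% and 5.0% in the same ranks. Over ranks 1 to 6000 the count was 347 in replicate 1 and 160 in replicate 2. Every bin from rank 1 to 6000 had a higher share in replicate 1 than in replicate 2. In ranks 1281 to 2560 the shares were 5.86% in replicate 1 and 2.34% in replicate 2, and the pooled share of 4.06% lay about midway. In ranks 641 to 1280 they were 7.5% and 2.97%, and the pooled share of 7.19% lay near that of replicate 1.

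**Figure D1:**
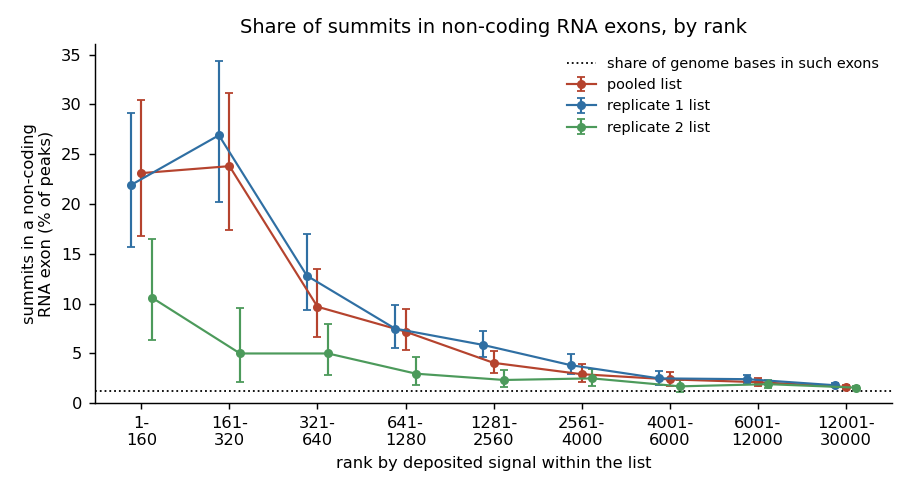
Share of peaks with the summit in a non-coding RNA exon (percent, vertical axis) by rank bin within the pooled list and the lists of replicates 1 and 2 (horizontal axis), with exact binomial 95% intervals of counting error and a dotted line at 1.22%, the share of genome bases in such exons. The pooled and replicate 1 lists start above 20% and the replicate 2 list at 10.6%, and the 3 lists lie between 1.92% and 2.42% in the bin just past rank 6000.

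Unclassified ncRNA genes held most of the peaks. They accounted for 239 of the 294 (81.3%, interval 76.4 to 85.6%), and they make up 74.0% of the exon bases of the RNA genes. There were 19 peaks in tRNA genes, 16 in snoRNA genes, 9 in long intergenic RNA (lincRNA) genes, 7 in snRNA genes, 2 in microRNA genes and 2 in antisense RNA genes. No summit lay in an rRNA gene. Set against the annotation, the summits of the 294 lay in 300 of 7764 annotated ncRNA genes, 19 of 634 tRNA genes, 16 of 346 snoRNA genes, 7 of 129 snRNA genes, 9 of 194 lincRNA genes, 2 of 100 antisense RNA genes and 2 of 261 microRNA genes. Every RNA gene at a summit was counted here, so the ncRNA genes include some at peaks of another class. Among the classes with a summit this was from 0.766% of a class (microRNA genes) to 5.43% (snRNA genes). Gene length differs between classes, and exon bases give another picture. LincRNA genes held 12.1% of the exon bases and 3.06% of the peaks, antisense RNA genes 3.04% and 0.68%, and microRNA genes 1.95% and 0.68%. For tRNA genes the values were 3.68% and 6.46%, for snoRNA genes 3.34% and 5.44%, and for snRNA genes 1.17% and 2.38%. The RNA genes hit were short, with a median length of 149 bp, and the summit lay a median of 39.5 bp from the middle of the gene. The rule keeps that distance small in short genes, since the summit must lie in an exon, so it does not show centring. For 66 of the 294 peaks the summit lay in RNA genes on both strands, so the strand of the RNA cannot be assigned there.

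The 4 highest-ranked peaks of the whole list were RNA-exon peaks at the peb-1 gene. Their signals were 202 at T14F9.17, 188 at T14F9.14, 165 at T14F9.11 and 122 at T14F9.20. The 4 loci ranked 1, 2, 3 and 4 in replicate 1 and 2, 1, 4 and 12 in replicate 2. The peak at T14F9.17 was 687 bp upstream of a peb-1 start, and the other 3 lay inside the body of peb-1, off its exons. Of these 3, T14F9.14 lay 331 bp and T14F9.20 lay 354 bp upstream of a peb-1 start. T14F9.11 lay 1290 bp downstream of its nearest peb-1 start. The strain carries a transgene for this gene, so extra copies of the region and more protein per copy cannot be told apart here. Without the peaks within 20 kb of peb-1, 290 RNA-exon peaks remained of 5975 (4.85%).

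Of the 5 strongest ncRNA peaks outside that locus, 3 lay within 1000 bp upstream of a coding gene. The peak at F13D11.22 ranked 9 (replicate 1, 9, and replicate 2, 27), with signal 86.9, and its nearest coding start was 6215 bp away. The peak at W06B11.7 ranked 12 (13 and 10 in replicates 1 and 2) and lay 299 bp upstream of puf-9, which encodes a Pumilio-family RNA-binding protein. The peak at F59B10.7 ranked 13 (7 and 76) and lay 422 bp upstream of myrf-1, and that at F44A6.7 ranked 31 (33 and 71) and lay 249 bp upstream of myrf-2. The 2 myrf genes encode membrane-anchored transcription factors with a role in larval molting. The peak at Y15E3A.8 ranked 24 (36 and 20), and the nearest coding start was that of nfki-1, 1194 bp away. In each replicate all 5 ranked 76 or better. Of all 294 peaks, 14 ranked within 160 in both replicates, as did 36 of the 5706 other peaks. These counts mix ranks, and the RNA-exon peaks were a larger share of the top ranks. Within pooled ranks 1 to 160 the counts were 12 of 37 RNA-exon peaks and 32 of 123 other peaks. In ranks 161 to 320 they were 0 of 38 and 1 of 122. Of the 14, 13 were of the ncRNA class. The rest of the 14 beyond those named above were C25F6.12 at pooled rank 48 (148 and 11), F59G1.12 with summits at ranks 84 and 824 (131 and 39 for both), the snRNA peak C52E4.8 and F13D11.7 at rank 1664. The rank 824 summit of F59G1.12 overlaps the same replicate peaks as the rank 84 summit, and F13D11.7 the same as F13D11.22, so these weaker summits carry the ranks of a stronger neighbour.

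Peaks in snRNA genes included a gene for spliced leader RNA. The strongest was C52E4.8, with signal 58.4 at pooled rank 37 and ranks 52 and 50 in replicates 1 and 2, which lay 523 bp upstream of snr-4, an Sm core protein gene of spliceosomal particles. The SL2 RNA gene sls-2.2 ranked 65 (110 and 307), and its summit lay 2 bp from the annotated start of the RNA. F38E11.10 ranked 269 (674 and 225). A peak at sls-2.4, another SL2 RNA gene, ranked 575 and 275 in replicate 1 and had no overlapping peak in replicate 2. Of the 7 snRNA peaks, 6 held sequence that occurs more than once in the genome, and 5 lay near a coding start, which 29.7% of all 6000 peaks did.

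Peaks in snoRNA genes mostly ranked better in replicate 1, as the RNA-exon peaks did as a whole. All 16 were overlapped in replicate 1 by a peak of rank 1 to 6000, beside 77.6% of all RNA-exon peaks and 52.3% of all 6000. In replicate 2 it was 7 of the 16, beside 42.5% of all RNA-exon peaks and 42.4% of all 6000. The median rank was 644.5 in replicate 1, and in replicate 2 it was 5875 over the 13 with a peak there. The strongest, F07A11.15, had signal 57.9 and pooled rank 38, with rank 25 in replicate 1 and 1444 in replicate 2. It lies inside din-1, the gene of a corepressor that binds the nuclear receptor DAF-12, and its summit was 55 bp upstream of a din-1 start. T08B6.64 ranked 132 (165 and 757). ZK994.7, inside the peroxidasin gene pxn-1, ranked 152 and 115 in replicate 1 and had no overlapping peak in replicate 2. F59C6.15 ranked 200 (200 and 4857). Of the 16 summits, 10 lay inside the body of a coding gene (62.5%, interval 35.4 to 84.8%), beside 33.3% of all RNA-exon peaks. Of the other peaks outside coding exons 44.8% did, a value inside that interval. For 6 of the 10 the gene was on the same strand as the snoRNA, as for 36 of all 98 RNA-exon peaks inside a coding gene.

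Peaks in tRNA genes spanned 13 isotypes, with 3 proline genes as the highest count. The isoleucine gene F57F5.t1 ranked 95, with signal 41.4 and ranks 98 and 389 in replicates 1 and 2, and lay 445 bp upstream of gcy-33, a guanylate cyclase gene. The leucine gene C04A11.t1 ranked 216 (160 and 2944), the lysine gene C33G3.t2 ranked 260 (480 and 756), and the second isoleucine gene C02B4.t1 ranked 276 (527 and 1001). Of the 19 tRNA peaks, 4 were overlapped by peaks of ranks 1 to 6000 in both replicates, beside 14.5% of all 6000 peaks, and 7 had no overlapping peak in replicate 2, beside 17.4% of the other peaks. All 19 held repeated sequence, so reads could be shared with other copies. GTTCGA was present within 100 bp of 12 of the 19 summits, and in 72.9% of the 201 bp windows at the middle of the 612 annotated nuclear tRNA genes. The same letters were in 8.17% of windows over all 30000 pooled peaks.

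Long intergenic, antisense and microRNA peaks were few and mostly weak. The strongest lincRNA peak was in linc-91, at rank 122 (108 and 5585), followed by linc-128 at rank 498 (210 and no peak), linc-129 at rank 1097 (1913 and 6109) and linc-142 at rank 1769 (1880 and 14727). The antisense RNA peaks were in F48C1.15 at rank 593 (321 and 28065), which lies inside let-526 on the other strand, and in C02F4.12 at rank 4433 (2944 and 14995). The microRNA peaks were in let-7, the heterochronic microRNA gene, at rank 385 (1827 and 1137), and in mir-8209 at rank 4418 (1045 and no peak). The let-7 summit had signal 27.8 and lay 1234 bp from the start of the annotated 1732 bp gene and 307 bp upstream of C05G5.7. Its 61 base window is shown because let-7 is the best known of these RNAs, and it held neither the GA repeat nor a core hexamer.
let-7, chrX:14744057-14744117, minus strand: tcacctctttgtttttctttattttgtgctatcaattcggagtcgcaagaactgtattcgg
The last peaks inside the limit were linc-167 at rank 5807 (signal 16.192) and Y57G11C.1136 at rank 5864 (16.161), and the first past it were R10E12.3 at rank 6020 (16.08) and K02B9.8 at rank 6023 (16.077).

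**Figure D2:**
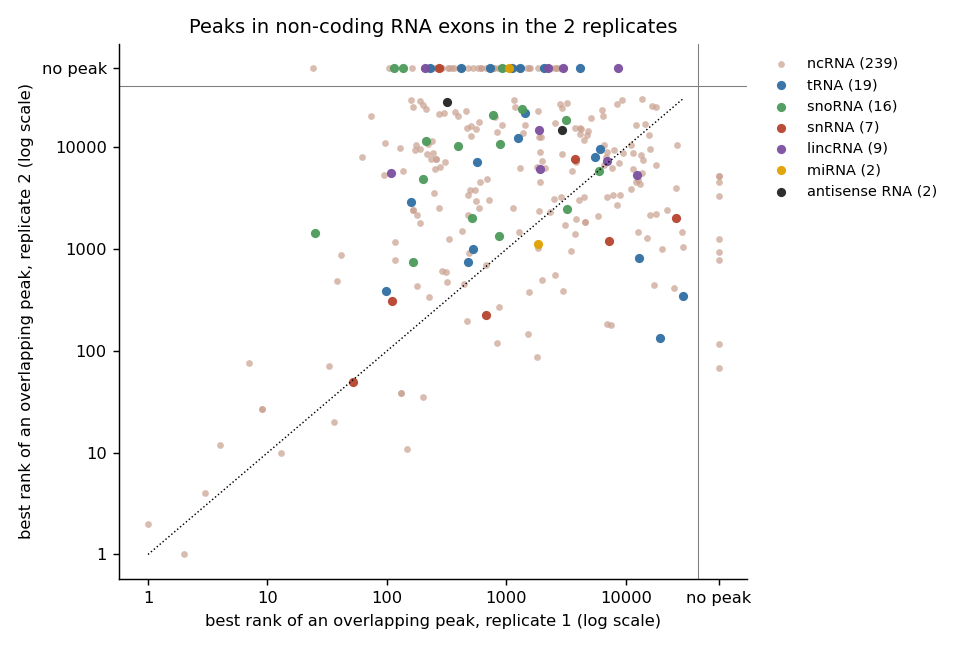
Best rank of a peak overlapping each of the 294 RNA-exon peaks in replicate 1 (horizontal, log scale) and replicate 2 (vertical, log scale), coloured by class of RNA gene, with a dotted line at equal ranks and separate strips for peaks with no overlap. Points above the line ranked better in replicate 1, which holds for 148 of the 220 with a peak in both lists, and 65 points (22.1%) sit in the strip with no peak in replicate 2 and 9 (3.06%) in the strip for replicate 1. The other peaks, not drawn, had no peak in replicate 2 in 17.4% and in replicate 1 in 10.1%, with all ranks counted together.

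Replicate 1 held more of the RNA-exon peaks than replicate 2 did. A peak of rank 1 to 6000 in both replicates overlapped 88 of the 294 RNA-exon peaks (29.9%, interval 24.8 to 35.5%), beside 13.7% of the other peaks and 14.5% of all 6000. A peak of rank 1 to 6000 in replicate 1, whatever replicate 2 held, overlapped 77.6% of the RNA-exon peaks and 51.0% of the other peaks, with 52.3% over all 6000. For replicate 2, counted in the same way, the shares were 42.5% and 42.4%, with 42.4% over all. Within each range of pooled rank, however, the replicate 2 share was lower for RNA-exon peaks. It was 66.7% and 71.8% in ranks 1 to 320, and 31.7% and 37.9% in ranks 1281 to 6000. In ranks 321 to 1280 it was 39.0% (interval 28.0 to 50.8%) and 57.1% (53.7 to 60.4%). The replicate 1 shares in ranks 321 to 1280 were 93.5% and 81.7%, and in ranks 1281 to 6000 they were 57.0% and 42.4%. The higher share in both replicates was thus found beside a higher share in replicate 1. Within pooled ranks 1 to 320 the share found in both was 66.7% of RNA-exon peaks (50 of 75) and 71.8% of the other peaks, and in ranks 321 to 1280 it was 33.8% and 39.2%. In ranks 1281 to 6000 it was 8.45% and 5.66%. The pooled difference therefore did not hold in ranks 1 to 320 and 321 to 1280, where the RNA-exon peaks had the lower share and the counting intervals overlapped.

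Among the 220 RNA-exon peaks with an overlapping peak in each list, 148 (67.3%) had the better rank in replicate 1, and 52.9% of such other peaks did. By pooled rank this was 76.5% of RNA-exon peaks and 70.4% of the other peaks in ranks 1 to 160, 88.9% and 65.1% in ranks 161 to 320, and 71.2% and 56.4% in ranks 321 to 1280. In ranks 1281 to 6000, which hold 142 of the 294, it was 52.7% and 51.0%. No overlapping peak was found in replicate 2 for 65 RNA-exon peaks (22.1%), beside 17.4% of the other peaks, and in replicate 1 for 9 (3.06%), beside 10.1% of the other peaks. By pooled rank the replicate 2 shares were 8.11% and 6.5% in ranks 1 to 160, and 5.26% and 13.1% in ranks 161 to 320. They were 23.4% and 12.6% in ranks 321 to 1280, and 29.6% and 18.7% in ranks 1281 to 6000. Among the 40 highest-ranked RNA-exon peaks, Y37A1B.330 at rank 53 (24 in replicate 1), C02B4.13 at rank 121 (105 in replicate 1) and ZK994.7 had no overlapping peak in replicate 2. The largest ratios of replicate ranks among those 40 were at F26F4.14, which ranked 74 and 20270, F49B2.8, which ranked 159 and 28984, F57G12.6, which ranked 62 and 8078, and K05B2.6, which ranked 97 and 11074 in replicates 1 and 2. F26F4.14, F57G12.6 and K05B2.6 lay upstream of a coding start, at distances between 398 and 576 bp.

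RNA-exon peaks lay near coding starts somewhat more often than the other peaks when all ranks were counted together. A coding transcription start site (TSS) had the summit at most 1000 bp upstream or 200 bp downstream of it for 109 RNA-exon peaks (37.1%, interval 31.5 to 42.9%), beside 29.3% of the other peaks and 29.7% of all 6000. The other peaks that lie outside coding exons, the closest match to the rule, gave 30.9%. By pooled rank the shares were 45.3% of RNA-exon peaks (interval 33.8 to 57.3%) and 38.0% of the other peaks in ranks 1 to 320, 33.8% (23.4 to 45.4%) and 30.9% in ranks 321 to 1280, and 34.5% (26.7 to 42.9%) and 28.5% in ranks 1281 to 6000. Within each range the interval of the RNA-exon peaks held the value of the other peaks. The difference was on the upstream side, at 251 to 500 bp, where 13.3% of RNA-exon peaks and 7.71% of the other peaks outside coding exons had their nearest start, and at 501 to 750 bp, where the shares were 9.86% and 4.96%. At positions -1000 to -751 bp the RNA-exon peaks had the lower share, 2.38% and 4.22%. At 1 to 250 bp upstream the shares were 10.5% and 11.0%. Just downstream, from 0 to 200 bp, they were 0.68% and 1.79%. At any distance the summit was upstream of its nearest coding start for 71.1% of RNA-exon peaks and 59.9% of the other peaks outside coding exons. These shares by side and distance pool all ranks. The median signed distance, negative upstream, was -521 bp and -476.5 bp for the same 2 sets in ranks 1 to 320. It was -318 bp and -279 bp in ranks 321 to 1280, and -438 bp and -180.5 bp in ranks 1281 to 6000. Where the summit was in RNA genes of 1 strand and near a coding start, the RNA gene was on the strand of the coding gene in 30 of 83 cases.

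**Figure D3:**
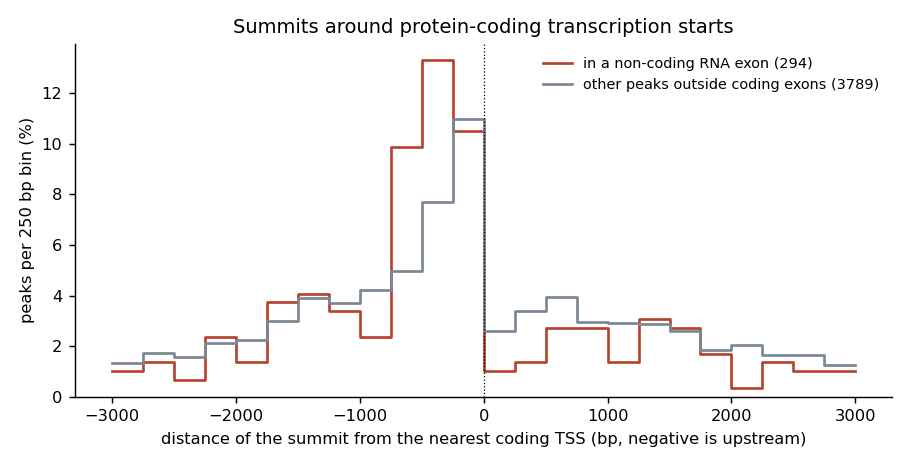
Percent of peaks per 250 bp bin (vertical axis) by signed distance of the summit from the nearest coding TSS (horizontal axis, bp, negative upstream), for the 294 RNA-exon peaks and the 3789 other peaks outside coding exons. The RNA-exon peaks stand higher from 251 to 750 bp upstream, with 13.3% in the bin from 251 to 500 bp, against 7.71%.

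The coding genes near RNA-exon peaks were of many families. Of the 109 peaks near a coding start, 2 were near nuclear hormone receptor genes, nhr-25 and nhr-255 (1.83%, beside 1.8% of the 1671 other peaks near a coding start). The ribosomal protein genes rpl-10a and rps-3A made up 2 as well (1.83%, beside 0.539%). None was near a gene of the ceh, hlh or zip families of transcription factors, a collagen gene of the col family, or a lin or unc gene, taking the nearest start of each peak. Among the other peaks near a coding start these shares were 0.718% for ceh, hlh and zip, 0.658% for col, 0.598% for lin and 1.2% for unc. A count of 0 of 109 allows a share of up to 2.75% in each family (3 counts of 109, counting error only), which is above each of these shares. The summit lay inside the body of a coding gene, off its exons, for 98 RNA-exon peaks (33.3%), beside 29.8% of the other peaks and 44.8% of the other peaks outside coding exons. In 36 of the 98 a coding gene on the strand of the RNA gene held it. Where the summit lay in several RNA genes, only the strand of the first listed was used, also for those on both strands.

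GA repeats were common at RNA-exon peaks. GAGAGA or its reverse complement was present within 100 bp of the summit in 118 of the 294 (40.1%, interval 34.5 to 46.0%), beside 18.3% of the other peaks, 19.4% of all 6000 and 13.5% of all 30000 pooled peaks. Among the ncRNA class it was 43.5% (104 of 239), and among the remaining RNA classes 25.5% (14 of 55). The annotation itself is rich in these letters, since 24.1% of the 201 bp windows at the middle of all 7764 ncRNA genes held them. The pooled difference did not hold among the strongest peaks. In ranks 1 to 320 the motif was in 42.7% of RNA-exon peaks and 54.7% of the other peaks, with overlapping intervals, while in ranks 321 to 1280 it was in 49.4% and 25.7%, and in ranks 1281 to 6000 in 33.8% and 15%. The base composition moved with this. The median GC content of the 201 bp window was 48.8% for RNA-exon peaks and 41.8% for the other peaks in ranks 321 to 1280, and 49.8% and 48.3% in ranks 1 to 320. The part of GC content in the motif shares was not tested.

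The core hexamers differed less between the 2 sets. At least 1 was within 100 bp of the summit in 140 RNA-exon peaks (47.6%, interval 41.8 to 53.5%), beside 37.0% of the other peaks, 37.5% of all 6000 and 35.2% of all 30000 pooled peaks. It was in 33.8% of windows at the middle of all ncRNA genes. In ranks 1 to 320 it was in 64% of RNA-exon peaks and 55.1% of the other peaks, in ranks 321 to 1280 in 37.7% and 39.3%, and in ranks 1281 to 6000 in 44.4% and 35.6%. Over all ranks together, both the GA repeat and a core hexamer were present in 18.4% of RNA-exon peaks and 7.08% of the other peaks. Neither was present in 30.6% and 51.8%. These joint shares were not split by rank, and RNA-exon peaks were a larger share of the top ranks. The order of the 2 sets changed between rank ranges for each motif alone.

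In the strongest RNA-exon peaks core letters were most frequent in the 2 bins next to the summit, though most of the peaks had none there. For ranks 1 to 320 a core hexamer was in 20% of RNA-exon peaks in the 25 bp just before the summit and in 18.7% in the 25 bp that follow it, against 14.3% and 10.2% of the other peaks. These were 15 and 14 of 75 RNA-exon peaks. The bins farther out ranged from 1.33 to 13.3% of RNA-exon peaks, with the highest at positions -100 to -76 bp. GA repeats were spread more widely, and for ranks 321 to 6000 they reached 11.0% of RNA-exon peaks at positions -50 to -26 bp, against 2.97% of the other peaks. With 75 RNA-exon peaks in ranks 1 to 320, a single peak moves a bin by 1.33 percentage points.

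**Figure D4:**
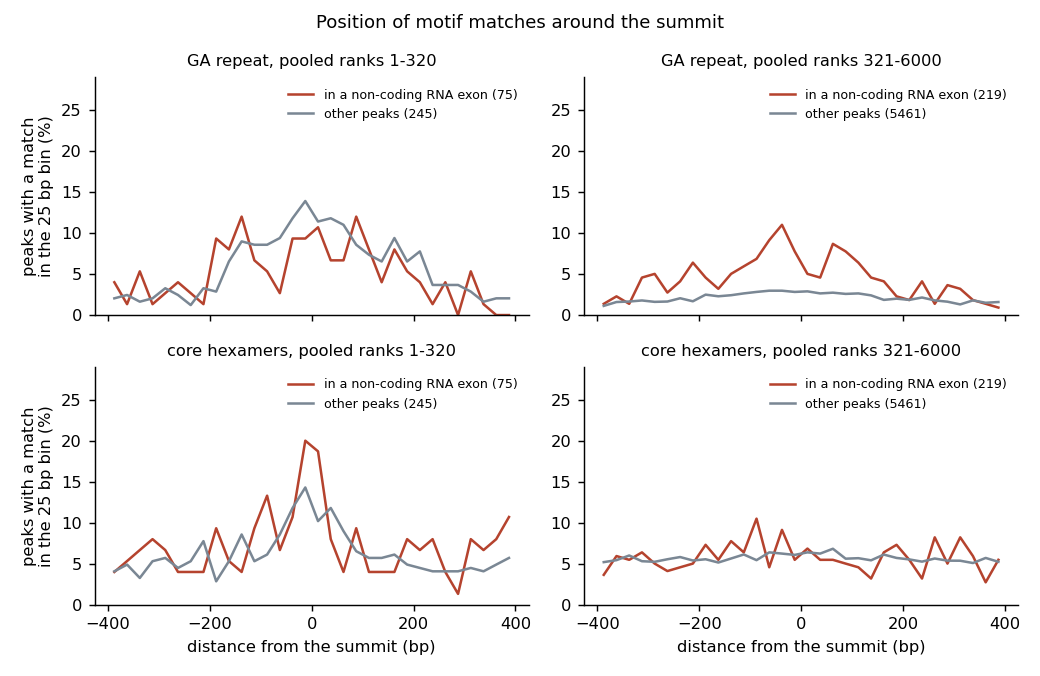
Percent of peaks with a motif match in each 25 bp bin (vertical axis) by distance from the summit (horizontal axis, bp), for the GA repeat (upper panels) and the core hexamers (lower panels), in pooled ranks 1 to 320 (left) and 321 to 6000 (right). Core matches peak at the summit in ranks 1 to 320, where RNA-exon peaks reach 20%, and the GA repeat is higher in RNA-exon peaks across the middle of the window in ranks 321 to 6000.

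**Figure D5:**
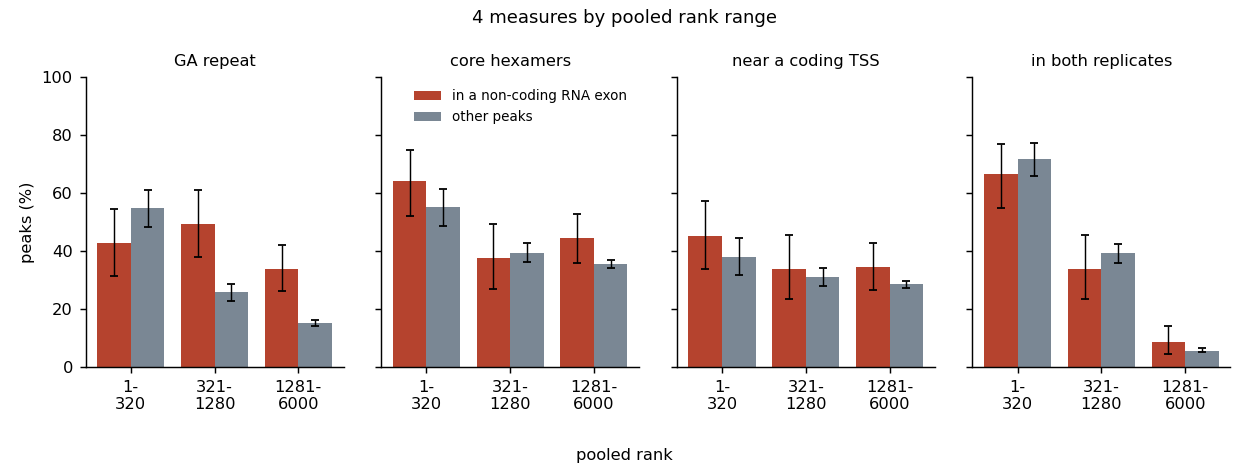
Percent of RNA-exon peaks and other peaks (vertical axis) with the GA repeat, with a core hexamer, near a coding TSS and overlapped in both replicates, in 3 ranges of pooled rank (horizontal axis), with exact binomial 95% intervals of counting error. For the GA repeat the order turns between ranks 1 to 320 (42.7% and 54.7%) and ranks 321 to 1280 (49.4% and 25.7%).

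Repeated sequence was concentrated in the tRNA and snRNA genes. A stretch of 36 bp that occurs more than once in the genome was within 100 bp of the summit in 40 RNA-exon peaks (13.6%, interval 9.9 to 18.1%), beside 4.12% of the other peaks and 4.58% of all 6000. Of the 40, 19 were tRNA, 12 ncRNA, 6 snRNA and 3 snoRNA peaks. Repeats are usual in the annotation too, at 96.6% of windows of all tRNA genes, 82.9% of those of snRNA genes and 16.6% of those of ncRNA genes, beside 5.02% of the ncRNA peaks. The sources used here do not give how reads with several matches were placed. Without these peaks the GA repeat was in 42.5% of the 254 that remained, and the share overlapped in both replicates was 29.1%.

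By chromosome the RNA-exon peaks followed the annotation. The X chromosome held 95 of the 294 (32.3%, interval 27 to 38%), beside 21.5% of the other peaks, 17.7% of genome length and 31.3% of the exon bases of these RNA genes. Chromosome V held 58, II 47, IV 37, I 29 and III 28. Within ranks 1 to 320, X held 34.7% of RNA-exon peaks and 35.5% of the other peaks.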

How the data were processed

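The measurements were peak lists in the build ce11 from 2 biological replicates of 1 group, numbered as in the labels, with a relaxed list of 30000 peaks for each replicate and for the 2 pooled, and 1 thresholded list of 160 peaks made from them, per the file listing of the submitters. Aligner, peak caller and settings, not given in the sources used here, could not be checked. Each peak carries a signal, its height as the authors deposited it in an unstated scale, which served to rank peaks of 1 list. The ninth column was treated as a deposited score, since 29058 pooled values were below 0, and was used only to break ties. Peak height depends on depth, on copy number and on how reads with several matches were placed, none of which could be varied.

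Peaks were 356 bp wide. Genes came from Ensembl release 115 (WBcel235), with symbols from RefSeq by WormBase ID for 2773 unnamed genes and in place of 1368 other names. A summit in exons of several classes took the first of rRNA, tRNA, snRNA, snoRNA, microRNA, lincRNA, antisense RNA and ncRNA. Overlap with a replicate meant at least 1 bp with its best-ranked peak. Motifs were searched on both strands within 100 bp of the summit, overlaps allowed. Repeated sequence was a 36 bp stretch found more than once in the genome. Scripts ran in Python 3.11.15 with pandas 2.3.3 and SciPy 1.17.1, and counting and repeat steps were tested on simulated data.

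With 1 group there was no comparison of conditions and no test, and the pooled list shares its reads with both replicates. The members and lists were chosen with earlier results of these data known. The peaks named were those of rank 1 to 40, the 4 highest of each class other than ncRNA (all where there were 6 or fewer), those within rank 160 in both replicates, the last 2 inside and the first 2 outside the limit, and, among the 40 highest, the 4 with the largest ratio of replicate ranks and those missing from a replicate. Alternatives changed the list, the rank limit, the windows, the overlap and the peb-1 locus.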

Additional observations from a re-analysis of the deposited data

How the results depend on the processing

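With the list of 1 replicate in place of the pooled list, the share of peaks in RNA exons ranged from 2.67 to 5.78%, the share of these found in both replicates from 27.4 to 48.8% and the share with the GA repeat from 27.5 to 41.5%, with replicate 2 alone giving 2.67%, 48.8% and 27.5%. In this setting each peak overlaps itself in its own list. The share found in both is then the share overlapped in the other replicate alone, which is not the measure used for the pooled list. The share in RNA exons was 7.2% in pooled ranks 1 to 3000, 3.51% in ranks 1 to 12000 and 2.8% where at least 50% of the peak had to lie in such exons. The share found in both replicates was 38.9% in ranks 1 to 3000, 21.4% in ranks 1 to 12000, 21.8% with a replicate summit within 100 bp and 74.8% with overlap at any rank, where the other peaks had 72.7%. Near a coding start lay 24.1% with 500 bp upstream to 100 bp downstream and 53.4% with 2000 to 500 bp. The GA repeat was in 23.1% within 50 bp and 55.8% within 200 bp, and a core hexamer in 29.9% and 64.6%. The wider and narrower windows move a share by their construction. Over all ranks of each list the RNA-exon peaks had the higher share in these settings, but the other peaks' value lay inside their interval for overlap at any rank, for the 2000 to 500 bp window (other peaks 49.3%) and for the core hexamers in the list of replicate 1 (42.7%, other peaks 38.4%). Within pooled ranks 1 to 320 the order turned for the GA repeat (42.7% and 54.7%) and for the share found in both replicates (66.7% and 71.8%). Repeated sequence stayed between 11.2 and 15.7% and the ncRNA class between 77.5 and 81.3%. Leaving out the peb-1 locus moved no share beyond its counting interval. No paired analysis was possible because there was 1 group. Read depth is unknown, and the scale of signal limits comparison to ranks within a list.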
